A study of Homo sapiens with 2 samples.

Results

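Meiotic prophase genes are described here as a set of 36 listed genes, chosen by name for their roles in chromosome pairing and recombination, out of the 62700 genes of the gene table. All 36 were found by symbol. Both libraries come from TCam-2, an established human testicular seminoma cell line, transduced to overexpress FLAG-tagged DDX53, a DEAD-box RNA helicase. The 2 libraries form 1 group and share every treatment, and the GFP-transduced and untransduced control cells that the design names were not analysed here. No value below is therefore an effect of DDX53, and the comparisons are between the replicates, between genes and between the 2 kinds of table. The labels do not say whether the replicates were separate cultures, so their spread may be technical.

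In meiotic prophase, cells of the germ line cut their own DNA, repair the breaks on the homologous chromosome and hold the paired chromosomes together along a protein scaffold. Cohesin and HORMAD proteins build the chromosome axis, SPO11 and its helpers make the breaks, the recombinase DMC1 invades the homologue, the synaptonemal complex zips the axes, and MSH4 and MSH5 stabilise the joints that become crossovers. Most of these genes are silent in somatic cells. In dividing cells several of them are kept off by DNA methylation and by a repressor complex that contains MGA, MAX, PCGF6, L3MBTL2 and E2F6. Seminoma cells resemble early germ cells that have not entered meiosis.

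The replicates held 24137664 and 22198929 reads in genes, and a count of 0 allows up to 3 reads, which is 0.124 and 0.135 CPM (reads per 1000000 reads in genes). DDX53 itself had 146 and 147 reads, 6.05 and 6.62 CPM. All 8 seminoma and germ cell identity markers were at 1 CPM or more, with a summed level of 5139 and 5117 CPM. Of the 7 defining markers of spermatocytes and spermatids 1 reached that level, PIWIL1, and 3 had no read (PRM1, TNP1 and PGK2), for a sum of 4.39 and 5.18 CPM. The wider list of 13 such genes had 4 at that level (OVOL1, PIWIL1, CLGN and CCNA1) and summed to 21.5 and 23.6 CPM, of which OVOL1 gave 12.6 and 12.8. Of 7 markers of testis somatic cells 2 reached it, SOX9 and AMH, and 1, PTPRC, had no read, for a sum of 14.21 and 11.04 CPM. In bulk RNA, fewer cells of a type and less RNA per cell cannot be told apart, so a low level here could be a low level in all cells or a higher one in a few.

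Most of the meiotic prophase genes were at or near the limit of detection. Only 6 of 36 (16.7%) had at least 1 CPM in both libraries: SYCP2, REC8, DMC1, PSMC3IP, TEX15 and HFM1. The same level was reached by 21.7% of all genes in the table and by 61.7% of the 19831 protein-coding genes. The median member stood at a mean of 0.161 CPM, against 6.76 CPM for protein-coding genes. A further 7 members had no read in either library, namely SYCP1, SYCE1, HORMAD1, SPO11, MEI1, TERB1 and TERB2. That share, 19.4%, lay near the 17.7% of protein-coding genes without a read. Between these ends, 16 members had at least 1 read but no more than 10 in either library, and 7 had over 10 reads in a library without reaching 1 CPM in both. HSF2BP, at 0.994 and 1.26 CPM, lay just outside the threshold, and HFM1, at 1.70 and 1.17 CPM, lay just inside it.

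**Figure D1:**
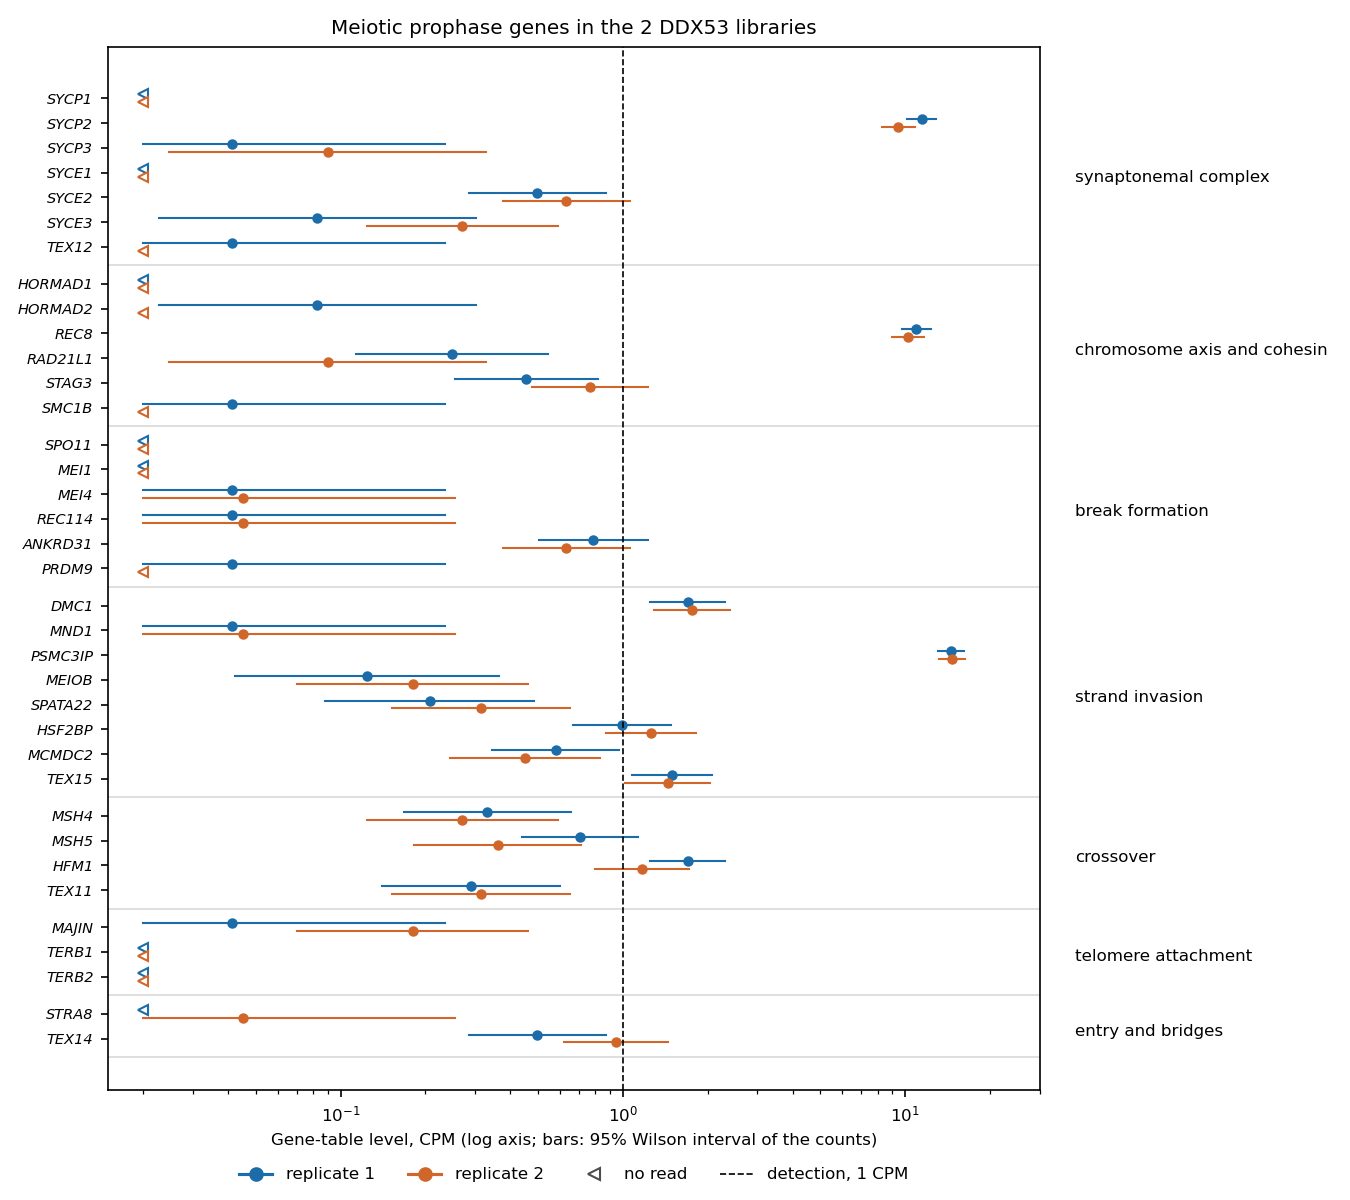
Level of each of the 36 members in CPM on a log axis, with 1 point per replicate, grouped by role; bars are 95% Wilson intervals of the counts, clipped at the left edge, and open triangles stand for no read. SYCP2, REC8 and PSMC3IP stand near or above 10 CPM and the other members stand below 2 CPM.

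The members together took 1161 and 1015 reads, or 48.1 and 45.7 CPM (mean 46.9 ± 1.68, SD, n = 2). Of this sum the 4 highest members held 80.4% and 79.1%. By gene-table reads, the low total was thus carried by a handful of genes in both libraries. MND1, the highest member by length-scaled level (below), had 1 read in each library there and adds almost nothing to this sum.

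Promoter sequences were searched for the E2F core and the E-box, letters that DNA-binding subunits of the repressor complex are known to read. These letters could be set beside the levels, and other motifs were not searched. RefSeq starts (GRCh38.p14) were matched for 29 of the 36 members, and the 250 bases before the first listed start were read. The E2F core GCGGGAA, on either strand, was in 9 of the 29 (31.0%), and 5.59% of 27305 promoters of the same length held it. These sets are unlike in base content. The core holds a CpG dinucleotide, and the 29 had a median of 19 of these, against 11 over all promoters. The part of base content in the unlike shares was not tested. The E-box CACGTG, which reads alike on both strands, was in 0 of the 29 and so overlapped no E2F core in them, and 6.49% of all promoters held it. Both motifs were chosen after levels of these genes had been seen. The 9 matches are printed 5′ to 3′ along the gene's strand, with the core in capitals and up to 10 bases on each side, to show that the same letters stand before a listed start of well-read genes and of genes with no read.
REC8: aagcgctcgcTTCCCGCggtgcgat
SYCP2: ggacgggcgcTTCCCGCcttccgccgt
MSH5: acggcagaggGCGGGAAgtttgaacgt
SMC1B: ggcgaatcccTTCCCGCgctttttccg
REC114: aatgccctaaGCGGGAAtcttcggagc
PRDM9: ttcctcagggGCGGGAAgagccaggcc
SPO11: ctcagaaagcGCGGGAAaggcacgc
SYCE1: tttccctctcTTCCCGCaggtttagcc
TERB1: ggtcggctggGCGGGAAaccctgtc

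The REC8 window is chr14:24172055-24172079 on the plus strand, and the SYCP2 window is chr20:59933669-59933695 on the minus strand. The windows of SPO11 (chr20:57329778-57329802, plus), TERB1 (chr16:66801585-66801609, minus) and REC8 each end at the listed start, with 8 bases between the core and that start. SMC1B (chr22:45413609-45413635, minus) has 19 bases there and SYCP2 has 41. The remaining cores lie farther off, in REC114 (chr15:73443045-73443071, plus) at 102 bases, MSH5 (chr6:31739801-31739827, plus) at 187, PRDM9 (chr5:23507400-23507426, plus) at 192 and SYCE1 (chr10:133568476-133568502, minus) at 194. Levels did not separate these genes. Among the promoters read, the core was found in 3 of 7 members that reached 1 CPM or 1 TPM (transcripts per 1000000, a level scaled by transcript length), in 3 of 6 without a read and in 3 of 16 between. SPO11, SYCE1 and TERB1 had 0 reads in both libraries, while REC8 had 265 and 228 and SYCP2 277 and 210. The count of CpG dinucleotides per 250 bases had a median of 23 in the 7 higher members, 18.5 in those between and 16.5 in those without a read, and the ranges overlapped (17 to 33, 0 to 32 and 7 to 24). The median over all promoters was 11. By GENCODE 29 gene models, which can begin before the listed RefSeq start, the core lay before the gene in 3 of the 9 (MSH5, REC114 and SYCP2), across its first base in 1 (SMC1B) and inside it in 5. In REC8 it lies downstream of the starts of REC8-213 and REC8-209. A match is a run of letters and no measure of binding, and DNA methylation was not measured.

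The synaptonemal complex was represented by 1 of its 7 listed genes. SYCP2, a lateral element protein that lines the axis (chromosome 20, 59863563 to 59933655, minus strand, GRCh38), had 277 reads in replicate 1 and 210 in replicate 2, or 11.5 and 9.46 CPM. SYCP3, which pairs with SYCP2 in the lateral element, had 1 and 2 reads. By length-scaled level, SYCP2 stood at 4.08 and 3.74 TPM and SYCP3 at 0.0622 and 0.136 TPM. The reads of SYCP3 lie under the floor of 3 reads, so no fold between the 2 genes is given. SYCP1, the transverse filament that spans the central gap, had no read. Among the central element genes, SYCE1 had no read, SYCE3 had 2 and 6, TEX12 had 1 and 0, and SYCE2 had 12 and 14. SYCE1 carried 0.192 TPM in replicate 1 and 0 in replicate 2, and 53.3% of its exonic length overlaps CYP2E1 on the opposite strand.

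Among the 6 axis and cohesin genes, REC8 stood apart. REC8, the meiotic kleisin that closes the cohesin ring (chromosome 14, 24171853 to 24180257, plus strand), had 265 and 228 reads, or 10.98 and 10.27 CPM. RAD21L1, the other meiotic kleisin, had 6 and 2 reads and was listed at 0 TPM in both libraries. STAG3, the meiotic subunit that REC8 cohesin carries, had 11 and 17 reads, and SMC1B, its meiotic SMC subunit, had 1 and 0. REC8 was thus at 6.89 and 6.36 TPM beside 0.197 and 0.542 TPM for STAG3 and 0.0146 and 0 TPM for SMC1B. Of the axis proteins that mark unpaired chromosomes, HORMAD1 had no read and HORMAD2 had 2 and 0.

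None of the 6 break formation genes reached 1 CPM. SPO11, the enzyme that cuts DNA, and MEI1, also needed for breaks, had no read in either library. MEI4 and REC114, which act together in the machinery that licenses breaks, had 1 read each in both libraries. PRDM9, the histone methyltransferase that places breaks at hotspots, had 1 and 0. ANKRD31, a partner of REC114, was the highest of the 6 with 19 and 14 reads, or 0.787 and 0.631 CPM. TOP6BL (older name C11orf80), a gene outside the 36 that encodes TOPOVIBL, the partner subunit of SPO11, stood at 17.9 and 17.6 TPM, where SPO11 was listed at 0.

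Strand invasion was the best represented role, with 3 of 8 genes at 1 CPM or more, a level not scaled by gene length. By TPM, 4 of the 8 reached 1 TPM in both libraries, and the genes were not all the same (below). PSMC3IP, also known as HOP2 (chromosome 17, 42572315 to 42577831, minus strand), had 351 and 326 reads, or 14.5 and 14.7 CPM. It forms a dimer with MND1 that helps DMC1 pair DNA. Of its exonic length, 29.9% overlaps MLX on the opposite strand, which had 1241 and 1148 reads, and whether the counting used strand is not given in the sources used here. DMC1, the meiotic recombinase (chromosome 22, 38518949 to 38570286, minus strand), had 41 and 39 reads, or 1.70 and 1.76 CPM. TEX15, a large protein needed to load recombinases in male meiosis (chromosome 8, 30831544 to 30913003, minus strand), had 36 and 32 reads, or 1.49 and 1.44 CPM. With 11864 exonic bases, it stood at only 0.198 and 0.151 TPM. HSF2BP, which binds BRCA2, had 24 and 28 reads, or 0.914 and 1.18 TPM. MCMDC2, an MCM-like protein of meiotic repair, had 14 and 10 and SPATA22, the partner of MEIOB, had 5 and 7.

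Among the 4 crossover genes HFM1, a helicase of crossover formation (chromosome 1, 91260766 to 91404869, minus strand), had 41 and 26 reads. Its level was 0.893 and 0.440 TPM, below 1 in both libraries. HFM1-206, which GENCODE lists as a processed transcript, held 52.5% and 55.6% of it. MSH4 had 8 and 6 reads and its partner MSH5 had 17 and 8. TEX11, a gene located on chromosome X whose protein joins recombination to synapsis, had 7 and 7 reads. The 3 genes that tie telomeres to the nuclear envelope had few reads or none, with 1 and 4 reads for MAJIN and no read for TERB1 and TERB2. STRA8, the switch that retinoic acid turns on at meiotic entry, had 0 and 1 read. TEX14, which keeps the bridges between germ cells open, had 12 and 21 reads, or 0.497 and 0.946 CPM.

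Levels scaled by transcript length gave a different head to the list. Summed over a gene's transcripts, 7 of 36 members had at least 1 TPM in both libraries, against 59.8% of protein-coding genes. In descending order of mean they were MND1 at 33.3 and 35.2 TPM, PSMC3IP at 15.7 and 17.5, REC8 at 6.89 and 6.36, MEIOB at 4.45 and 5.47, DMC1 at 2.84 and 5.37, SYCP2 at 4.08 and 3.74, and MSH5 at 2.29 and 3.43. MND1, PSMC3IP and REC8 did not overlap with their neighbours in this order. The libraries of DMC1 spanned those of MEIOB in part, those of SYCP2 wholly and those of MSH5 in part, so the place of DMC1 among them is not settled by the replicates. Only 4 members passed by both measures (PSMC3IP, REC8, DMC1 and SYCP2), and 9 passed by at least 1. SYCE3, at 0.755 and 1.12 TPM, lay just outside. The members' sum was 75.1 and 83.1 TPM, and their median 0.120 TPM against 3.76 TPM for protein-coding genes.

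MND1 (chromosome 4, 153344649 to 153415118, plus strand) is where the 2 tables parted. It was the highest member by TPM, yet the gene table gave it 1 read in each library. From its TPM and transcript lengths, 509 and 477 reads would be predicted, so 0.196% and 0.210% of them were counted. MEIOB, a single-strand DNA binding protein of meiotic recombination (chromosome 16, 1833987 to 1884294, minus strand), had 3 and 4 reads where 122 and 139 were predicted, or 2.45% and 2.88%. Both fell short by over 4-fold in both libraries, as did 6.15% of the 12984 genes with at least 1 TPM in both. MSH5 (chromosome 6, 31739948 to 31762834, plus strand) had 25.1% and 12.1% of the predicted reads, and so passed 4-fold in replicate 2 only. For PSMC3IP, REC8, SYCP2 and DMC1 the reads were between 86.2% and 111% of the prediction, close to the median of 108% over all these genes in both libraries. The exons of MND1 overlap no other gene in GENCODE 29. The exons of MEIOB overlap FAHD1 on the opposite strand over 7.69% of their length and LINC00254, which had no read, on the same strand over 10.3%. A larger part, 47.3%, of the exonic length of MSH5 is shared with the readthrough gene MSH5-SAPCD1 on the same strand, which had no read. The part of these overlaps in the shortfall was not tested. MND1 exceeded its dimer partner PSMC3IP by 2.12-fold and 2.02-fold in TPM, whereas by the gene table alone MND1 would be placed among the members near 0.

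**Figure D2:**
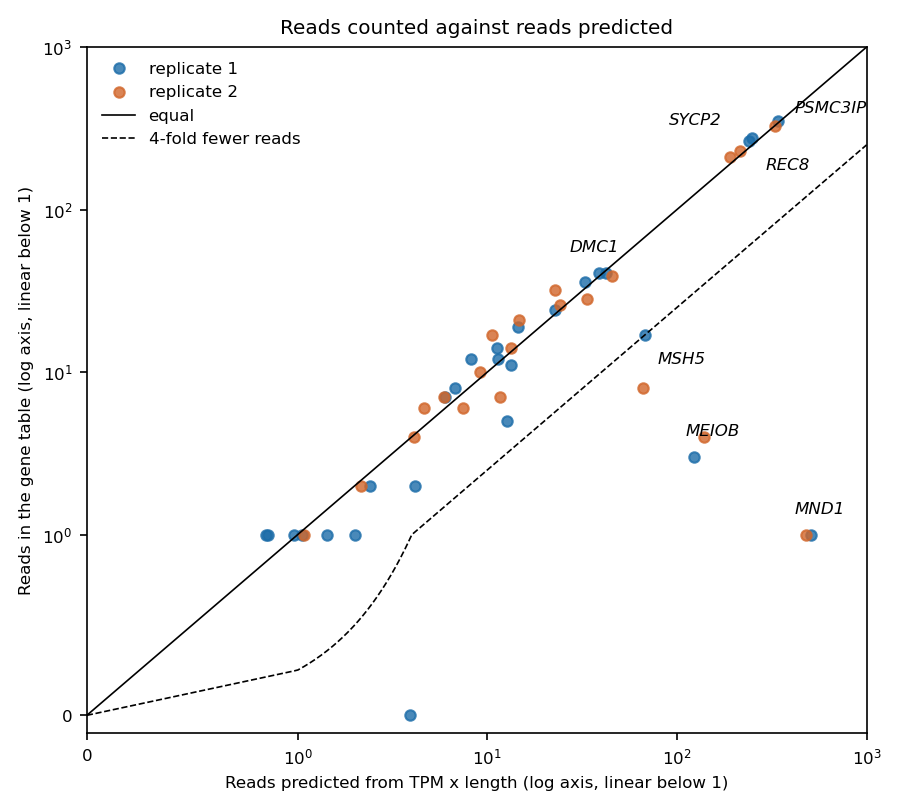
Reads counted in the gene table against reads predicted from TPM times transcript length, for members with a TPM above 0, with 1 point per member and replicate; both axes are logarithmic above 1 and linear below, the solid line marks equality and the dashed line 4-fold fewer reads. MND1 and MEIOB lie far under the dashed line in both replicates, with 1 read against 509 and 477 predicted for MND1.

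The TPM of DMC1 rested mainly on a noncoding transcript. A single transcript, DMC1-205, held 70.3% and 81.0% of its TPM. GENCODE lists it as a processed transcript without an open reading frame, with 2 exons and 269 bases at the start of the gene. The coding transcripts DMC1-201 and DMC1-203 have 2371 and 2082 bases. TPM is scaled by length, so the share of DMC1-205 in the gene's reads is smaller than its share of TPM. The protein-coding transcripts of DMC1 came to 0.842 and 0.753 TPM, below 1 in both libraries. For the other members of this group the coding share was high: 100% for MND1, MEIOB and SYCP2, 95.6% and 95.3% for PSMC3IP, and 89.5% and 93.1% for REC8. MSH5 had 42.8% and 51.9% in coding transcripts, and its top transcript differed between the libraries (MSH5-211, a target of nonsense-mediated decay, in replicate 1 and MSH5-208 in replicate 2).

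The main transcript was the same in both libraries for the other 6. MND1-201, with 8 exons and 968 bases, held 91.4% and 84.5% of the TPM of MND1, and MEIOB-201 held 94.5% and 92.6%. PSMC3IP-202 held 51.3% in replicate 1 and 76.6% in replicate 2. PSMC3IP-204 went from 31.8% to none between them, so the isoform split of PSMC3IP moved between libraries whose totals were 15.7 and 17.5 TPM. REC8-213 held 41.1% and 56.2%, and SYCP2-202, with 44 exons, held 64.7% and 56.9%. SYCP2-203, a transcript of 8 exons and 625 bases, held 26.0% and 43.1%. Depth per transcript is unknown, and TPM values this low carry no error of their own in the table.

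**Figure D3:**
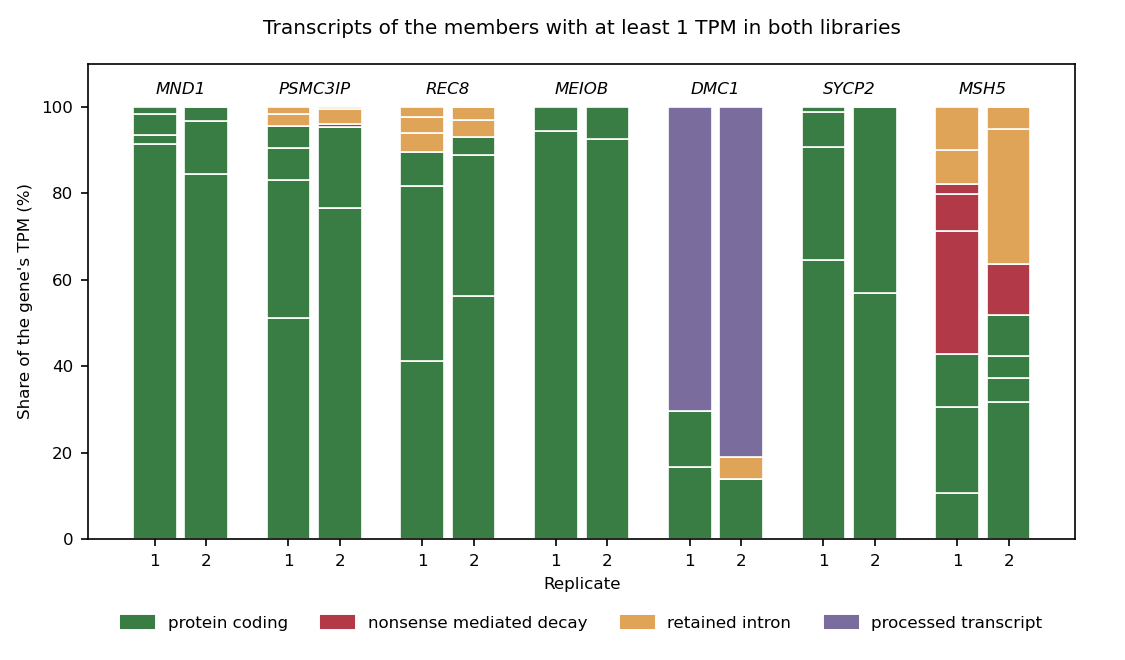
Share of each gene's TPM by transcript in percent, for the 7 members with at least 1 TPM in both libraries, with 1 stacked bar per replicate; each segment is a transcript, coloured by its GENCODE type. The noncoding processed transcript of DMC1 fills 70.3% and 81.0% of its bars, while MND1 and MEIOB are coding throughout.

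Meiotic genes with a counterpart in mitotic cells were set beside it in TPM, and the meiotic gene was lower in both libraries in 6 of 6 pairs. The pairs are not independent, since STAG3 and RAD21 each stand in more than 1 of them. For RAD21L1 and SMC1B, at or near 0 TPM, the direction adds nothing to their low level. REC8 was at 3.46% and 3.24% of the kleisin RAD21 (199 and 196 TPM), a log2 ratio of -4.90 ± 0.065 (SD, n = 2). STAG3 was at 1.89% and 5.74% of STAG1 and at 0.612% and 2.15% of STAG2, the subunits used in mitosis. By reads per kilobase of exon the log2 ratio of STAG3 was lower, at -6.44 in place of -4.92 against STAG1 and at -7.95 in place of -6.45 against STAG2. SMC1B was at 0.0146 and 0 TPM beside 46.3 and 43.0 TPM for SMC1A. With 1 read in replicate 1 and none in replicate 2 it lies under the floor, so no ratio is given. RAD21L1 was listed at 0 TPM in both libraries. The cohesin genes particular to meiosis were thus all minor beside those of mitosis. MEIOB was at 4.89% and 5.96% of its relative RPA1, a log2 ratio of -4.21 ± 0.20 (SD, n = 2), -3.31 with protein-coding transcripts only, or -9.19 by reads per kilobase, the measure in which its reads were short.

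**Figure D4:**
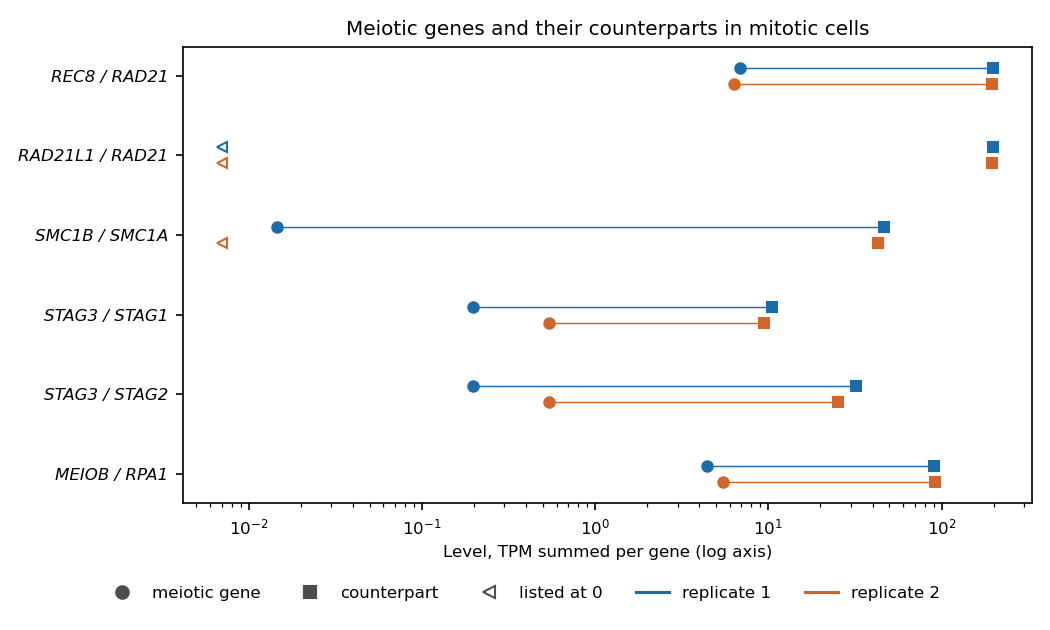
TPM summed per gene on a log axis for 6 pairs of a meiotic gene (circle) and its counterpart in mitotic cells (square), with 1 line per replicate; open triangles stand for a gene listed at 0 and carry no value on the axis. Every circle drawn lies left of its square, by a log2 ratio of -4.21 for MEIOB and RPA1 and of -6.45 for STAG3 and STAG2.

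Other meiotic genes were also mostly below 1 CPM, while the genes that meiosis shares with dividing cells were not. Of 26 other meiotic prophase genes matched by symbol or synonym, 7 had at least 1 CPM in both libraries and 5 had no read. That level was reached by 21.7% of all genes and 61.7% of protein-coding genes, and 17.7% of protein-coding genes had no read. The 3 highest of the 26 were TOP6BL (16.9 and 18.3 CPM), MEIOC, which keeps cells in prophase (16.2 and 16.4 CPM), and M1AP (16.1 and 16.5 CPM). All 32 listed genes of shared recombination and synapsis were at 1 CPM or more, as were all 16 genes of mitotic cohesin. Of 33 genes for meiotic entry signals and repression of germline genes, 25 were at that level. E2F6, the subunit of the repressor complex known to read the E2F core, was at 55.8 and 56.9 CPM. MGA was at 72.4 and 61.4 CPM and MAX at 31.1 and 31.1 CPM. Whether E2F6 or any other protein binds the letters printed above was not tested. E2F6, MGA and MAX were named after their values had been seen.

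No tested member passed the threshold for a difference between the 2 libraries. Of the 36, 12 had enough reads to be compared between the libraries, and edgeR's exact binomial test called 0 of them after Benjamini-Hochberg adjustment over 15299 genes, of which 13.1% were called. At an unadjusted p under 0.05 there was 1 of the 12 members, against 24.2% of all genes tested: SYCP2, with a log2 difference of -0.25 in replicate 2 against replicate 1 (edgeR unadjusted p = 0.0411, adjusted p = 0.183). This test compares 2 libraries with counting noise and not conditions, and the 12 members passed a filter on reads that the other 24 did not. Several of the 12 still had few reads, such as STAG3 with 11 and 17 and MCMDC2 with 14 and 10. A difference is hard to call at such counts, so 0 beside 13.1% is no sign of closer agreement. Across the 7 members with a mean of at least 1 CPM, the median log2((CPM + 1)/(CPM + 1)) was -0.029, beside -0.0077 over 13898 genes, and 3 of the 7 were higher in replicate 2. The same test over all genes with a read took in 29 members and also called 0, against 6.47% of 26504 genes. Of these members, 16 had no more than 10 reads in either library. A call was unlikely at such counts, so this 0 says little about them.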

How the data were processed

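Polyadenylated RNA from 2 replicate libraries was used. Trim Galore 0.6.10, STAR 2.7.11a, Salmon 1.10.2 and DESeq2 on GRCh38 are named in the submitters' processing notes. The annotation and the counting of strand are not given in the sources used here. The deposited gene signal, made by the authors and named as CPM, holds reads per gene scaled by a single factor in each library: 100% of values were whole multiples (within 0.1 of a read) of 1.02 in replicate 1 and 1.12 in replicate 2. Reads were recovered by that division, and CPM was computed from them with 95% Wilson intervals, which cover counting error only. The deposited TPM, made by the authors per transcript, were summed per gene through GENCODE 29, which matched 201667 of 251955 transcripts and 94.8% of TPM. The table headers name no identifier column, so names were read in order over the value columns.

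The libraries were compared with edgeR 4.0.16 (binomTest, TMM, filterByExpr, threshold 0.05) and, as an alternative, DESeq2 1.42.0 size factors. The calculation was tested on simulated data, where 83% of 200 genes changed 2-fold were recovered among 15355 genes, with 3 unchanged genes called. The changed genes were drawn only from genes above a minimum mean of reads, and counting noise alone was simulated. Recovery at the low reads of most members was therefore not measured. Predicted reads were TPM times transcript length, scaled to the library, and a shortfall was called after adding 0.5 read to the count. Named genes were all members, their partners, list markers and the 3 highest of each other list. E2F6, MGA and MAX were added as said above, and CCNA1 was added because it reached 1 CPM. Genes whose exons overlap members were named as well. The members and lists were chosen with earlier results of these data known. Results for some counterpart genes are not reported here.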

Additional observations from a re-analysis of the deposited data

How the results depend on the processing

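The number of members detected, 6 at 1 CPM, was 17 at 0.1 CPM and 3 at 5 CPM. Detection by TPM gave 7, and by either measure, chosen after seeing the data, 9. The number without a read, 7, was 16 when at most 3 reads were allowed, and ran from 8 to 11 with 1 library alone. The median log2 difference between the libraries, -0.029, was 0.166 with TPM, and it was 0.0050 over all members with a read. The members' summed level of 46.9 CPM was 79.1 in TPM, of which MND1 alone held 34.3. The median share of the top transcript, 63.9%, ran from 64.7% to 76.6% with 1 library alone. The cause of these shifts was not tested. The count of 0 members differing between the libraries was the same with all genes that had a read, DESeq2 size factors or total reads. Most members that the all-gene setting added had too few reads for a call to be likely. The count of 6 lower pairs was the same under its 4 alternatives. Members short of predicted reads, 2 at 4-fold, were 3 at 2-fold and 2 at 8-fold, folds chosen after seeing the data. Single ratios to partners moved beyond the replicate SD in 6 of 16 recomputations and none changed sign. No paired analysis was possible because there is only 1 group of samples.

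Reads per member limit what can be seen: with 3 reads as the floor, levels under 0.135 CPM cannot be told from 0, and 23 members had no more than 10 reads in either library.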
